A study of Mus musculus with 267 samples.

Results

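Mgl2 and Clec10a encode the macrophage galactose-type lectins MGL2 and MGL1, and the chromatin within 50 kb of their gene starts was followed in mouse bone marrow-derived macrophages before and after interleukin-4 (IL-4). A measured region or a transcription factor peak was counted to the locus when its centre lay within 50 kb of the GENCODE start of either gene in the mm10 mouse genome, whatever its signal. This took in 89 regions of 423610 in 9 tables of tag counts, and 517 peaks of 1958714 in 54 peak lists. The 5 strain tables held 12 regions of the locus in C57, 14 in BALB, 15 in NOD, 12 in PWK and 9 in SPRET, and the time course table of C57 held 15. The table of EGR2 sites over time held 8, and each of the 2 tables of Egr2 genotypes held the same 2 sites.

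The series asked how macrophages of genetically different mice respond to IL-4, with chromatin immunoprecipitation and sequencing (ChIP-seq) of histone marks, RNA polymerase II (Pol II) and transcription factors. Bone marrow of adult female mice was grown into macrophages with the growth factor M-CSF, and the cells were left untreated (basal) or given 20 ng/mL of IL-4. The strains were SPRET/EiJ (here SPRET), PWK/PhJ (PWK), BALB/cJ (BALB), NOD/ShiLtJ (NOD) and C57BL/6J (C57). Each was compared at basal and 24 h of IL-4, with 1 and 6 h added in C57 for H3K27ac, Pol II, STAT6 and EGR2. A further pair of genotypes was Egr2flfl, in which both Egr2 alleles carry loxP sites, and LyzMCreEgr2flfl, which also has Cre driven from the lysozyme M gene of myeloid cells. Both genotypes carry the floxed alleles, and how completely Egr2 was lost in the cultures cannot be read from ChIP-seq tags.

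Both lectins are type II transmembrane proteins of the C-type lectin family that bind terminal galactose or N-acetylgalactosamine on glycoproteins. They sit on macrophages and dendritic cells, take up glycosylated antigen and are widely used as markers of macrophages activated by IL-4, together with Arg1, Mrc1 and Retnla. IL-4 acts through its receptor to phosphorylate STAT6, which enters the nucleus and binds enhancers and promoters opened in macrophages by the lineage factors PU1 and CEBPb. PPARg, a nuclear receptor, and EGR2, a zinc finger factor, are themselves raised by IL-4 and take part in the later response. H3K27ac marks active promoters and enhancers, H3K4me3 marks promoters, H3K4me2 marks both, and Pol II tags show where polymerase sits.

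Mgl2 (ENSMUSG00000040950.13) lies on chromosome 11 from 70130329 to 70137550 on the plus strand, and Clec10a (ENSMUSG00000000318.16) follows on the same strand from 70156197 to 70170834. RefSeq places the start of Mgl2 at 70130125, close by. It places the start of Clec10a at 70166623, which is 10426 bp downstream of the GENCODE start, a start used by 1 of 10 Clec10a transcripts. No table had a region within 1 kb of the GENCODE start of Clec10a, so the region at the RefSeq start is called the Clec10a promoter region here, a choice made after the regions were seen. The neighbouring gene is Asgr2 (70092644 to 70106187), a subunit of the liver asialoglycoprotein receptor and itself a galactose-binding C-type lectin. Positions below are in kb from the GENCODE start of Mgl2, negative upstream, so that the Clec10a promoter region of C57 (70166045 to 70167045) sits at 36.2. That region was listed as open at basal only. Another C57 region at 36.5 kb (70166330 to 70167330), open at 24 h only, overlapped it. The one nearer the RefSeq start was used. The other was not past the fold rule or called by limma at 24 h in the C57 strain table. The PWK promoter region (70166305 to 70167305) lay closer to that other region. Upstream of Mgl2 the C57 table had a promoter region at -0.228 kb (70129601 to 70130601), a proximal region at -0.990 kb (70128839 to 70129839), which shared 238 bp with it and covered the processed pseudogene Gm12311, and a distal intergenic region at -15.5 kb (70114293 to 70115293). Downstream of Clec10a lay an intergenic region at 55.0 kb, 18.7 kb past the RefSeq start. Sites called past Clec10a below are named by their distance from that RefSeq start, not from the end of the gene.

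Sequences of the mm10 plus strand are shown for 5 stretches, 4 around Mgl2 and Clec10a that factors occupied after IL-4 and the stretch at 55.0 kb that PPARg held throughout. Capitals mark matches of the STAT6 letters (TTC and GAA with 4 free bases between), the PU1 letters GAGGAAGT or the nuclear receptor letters AGGTCA, on either strand.
Distal site, chr11:70114576-70114875: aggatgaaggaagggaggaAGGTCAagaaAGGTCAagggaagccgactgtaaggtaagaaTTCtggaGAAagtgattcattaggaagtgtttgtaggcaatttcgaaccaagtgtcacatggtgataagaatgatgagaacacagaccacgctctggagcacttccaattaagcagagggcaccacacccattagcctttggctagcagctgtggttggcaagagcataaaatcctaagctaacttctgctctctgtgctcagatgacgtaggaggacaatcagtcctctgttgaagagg
Proximal site, chr11:70129155-70129362: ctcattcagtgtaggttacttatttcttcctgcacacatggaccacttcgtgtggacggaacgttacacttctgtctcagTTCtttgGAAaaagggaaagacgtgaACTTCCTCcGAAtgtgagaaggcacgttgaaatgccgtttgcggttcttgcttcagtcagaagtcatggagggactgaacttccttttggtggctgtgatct
Mgl2 start, chr11:70130009-70130124: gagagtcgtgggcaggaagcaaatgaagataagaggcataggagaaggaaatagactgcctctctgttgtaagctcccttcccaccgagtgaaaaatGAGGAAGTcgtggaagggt
Site 18.7 kb past Clec10a, chr11:70185144-70185344: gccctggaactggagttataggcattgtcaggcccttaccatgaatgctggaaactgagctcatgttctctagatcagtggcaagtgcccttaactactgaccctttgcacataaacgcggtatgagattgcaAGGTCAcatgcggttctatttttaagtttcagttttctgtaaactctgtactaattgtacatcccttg
Site 22.8 kb past Clec10a, chr11:70189254-70189553: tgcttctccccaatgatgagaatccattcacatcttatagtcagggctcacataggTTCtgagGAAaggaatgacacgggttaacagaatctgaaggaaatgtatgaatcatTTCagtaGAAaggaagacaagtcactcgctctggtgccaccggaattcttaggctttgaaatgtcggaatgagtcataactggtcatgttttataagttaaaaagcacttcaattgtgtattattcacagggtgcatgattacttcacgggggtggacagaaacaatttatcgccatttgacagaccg

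The distal site held 1 STAT6 match (70114636 to 70114645) and 2 AGGTCA. The proximal site held 2 STAT6 matches, the second of which overlapped the PU1 letters on the minus strand (70129261 to 70129268). The site 22.8 kb past Clec10a held 2 STAT6 matches. The stretch at the Mgl2 start held the PU1 letters (70130106 to 70130113), and the site 18.7 kb past Clec10a 1 AGGTCA. Among windows of the same length centred on 67730 open regions of C57, the STAT6 letters were present in 7.19% at 300 bases and 4.93% at 208 bases, and the PU1 letters in 8.55% at 208 bases and 6.26% at 116 bases. AGGTCA was present in 19.5% at 300 bases and 14% at 201 bases. The letters searched for EGR2 (GTGGGNG, in 29.6% of 300-base windows) and CEBPb (TTGCNNAA, in 15.8%) were not in any of the 5 stretches. A match is a description of the letters and not a measured binding site.

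Tags were counted by the authors in windows of 1000 bp around the centres of open regions for histone marks and Pol II, and of 300 bp for factors, and scaled to 10000000 tags per library, which is the unit of every value below. The 155 libraries held 4691644 to 29050468 tags each (median 12936233), so that 1 normalised tag stood for 0.469 to 2.91 reads. The share of C57 H3K27ac tags that fell in the regions of the table was 59.6 to 65.4% in basal and 38.2 to 43.2% in 24 h IL-4 libraries, and in BALB 51.2 to 58.6% and 28.7 to 57.1%. Promoter regions of all 10 macrophage markers examined in C57 carried basal H3K27ac, from 190 to 1294 tags, while those of dendritic cell markers were present for 2 of 9 genes at 1.43 to 2.09 tags and those of T cell markers for 1 of 5 at 5.25 tags. Neutrophil markers had promoter regions for 2 of 8 genes (16.3 to 37.4 tags), B cell markers for 2 of 5 (2.05 to 88.8 tags), basophil and mast cell markers for 1 of 4 (1.06 tags) and hepatocyte markers for 0 of 4. At 24 h the macrophage markers ranged from 78.6 to 570 tags and the 2 dendritic cell markers from 2.07 to 3.96 tags. A ChIP-seq level in a culture cannot tell more cells with a mark from more mark per cell.

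In the strain tables, H3K27ac stood higher after IL-4 over the upstream flank of Mgl2 in every strain, and no region downstream of the Mgl2 start, the flanks of Clec10a included, was higher by the fold rule. Of the 62 regions of the locus in the 5 strain tables, 18 were at least 2.5-fold higher at 24 h (group means plus 1, with 16 tags or more in either group), against 3.08% of all regions, and 1 was lower, against 4.5%. These 18 were the 18 regions that lay within 20 kb upstream of the Mgl2 start, and none of the 33 regions downstream of that start was among them. By limma, 9 of the 62 were called higher (background 0.57%) and 0 lower (0.159%) at an adjusted p under 0.05, and all 9 lay within the same 20 kb. Without adjustment 18 of the 62 had a p under 0.05. No region was called in C57 (0.0% of the whole table higher) or NOD (0.0566%). In BALB 4 were called (background 1.6%), in PWK 3 (0.487%) and in SPRET 2 (0.994%). These limma counts take no account of replicate numbers, and with a replicate block more regions of the locus were called. The single region lower by the fold rule was in NOD at 61.1 kb, where the mean fell from 105.5 to 41.4 tags.

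**Figure D1:**
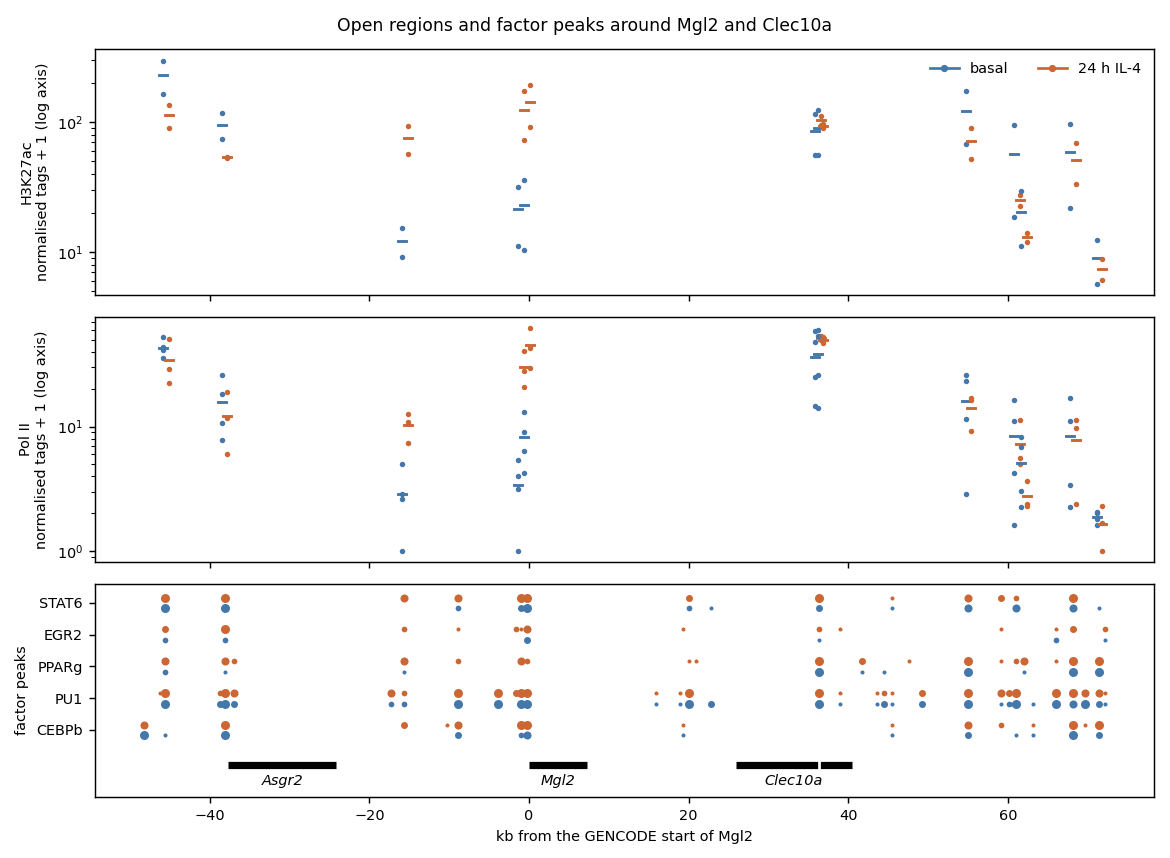
H3K27ac (top) and Pol II (middle) of every region of the locus in the C57 strain table, as normalised tags plus 1 on a log axis against the distance in kb from the GENCODE start of Mgl2, with points for libraries and bars for means, and below them the factor peaks of all strains at basal and 24 h of IL-4, drawn larger the more of the 5 strains had the peak; black bars are genes and the gap in the bar of Clec10a marks its RefSeq start. The 24 h libraries stand above the basal ones at -15.5, -0.990 and -0.228 kb and overlap them at the Clec10a promoter region.

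Pol II changed over the same stretch. It was higher by the fold rule (with 8 tags or more in either group) at 15 of the 62 regions (background 2.72%) and lower at 0 (1.14%), and limma called 10 higher (0.591%) and 0 lower (0.133%), all 10 in the 20 kb upstream of Mgl2. Pol II calls were 2 in C57 (0.223% of its table), 3 in BALB (0.663%), 0 in NOD (0.0%), 3 in PWK (1.44%) and 2 in SPRET (0.782%). H3K4me3 was higher by the fold rule at 5 regions (background 0.362%), the Mgl2 promoter region in each strain, and lower at 0 (0.165%). For H3K4me3 limma called 0 (0.00982% higher and 0.00164% lower in the tables as a whole), with 10 regions at an unadjusted p under 0.05, while edgeR called 3 and DESeq2 called 2. H3K4me2 was neither higher nor lower by the fold rule at any of the 62 regions (0.425% and 0.452%). For H3K4me2 limma called 0 (0.14% higher, 0.0183% lower), as did edgeR and DESeq2, and 3 regions had an unadjusted p under 0.05.

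At the Mgl2 promoter region the basal H3K27ac level was low to moderate and every 24 h library lay above every basal library in all 5 strains. In C57 it was 9.50 and 34.9 tags at basal and 90.8 and 190 tags at 24 h, 6.08-fold higher by the means (log2 change 2.77 ± 0.69 SE, limma adjusted p = 0.123). BALB had 25.7 and 42.3 tags at basal and 153 and 102 tags at 24 h (3.67-fold, log2 1.89 ± 0.67, adjusted p = 0.121). NOD had 48.2 and 81.0 tags against 300.2 and 170.0 tags (3.6-fold, log2 1.84 ± 0.51, adjusted p = 0.229). These 3 strains had groups that did not overlap, but the change missed the threshold of the main limma fit. That fit took no account of replicate numbers. In PWK the region went from 1.72 and 23.5 tags to 88.9 and 133 tags, the highest fold of the 5 (8.22-fold, log2 3.75 ± 0.77, adjusted p = 0.0389). SPRET rose from 65.8 and 73.8 tags to 194 and 255.2 tags (3.19-fold, log2 1.66 ± 0.35, adjusted p = 0.0242). The PWK call was kept in 1 of 4 fits that left out 1 library (the one without the second basal library) and the SPRET call in 0 of 4. Over all regions, 18.8% in C57, 13% in BALB, 16.6% in NOD, 14.6% in PWK and 18.2% in SPRET had all 24 h libraries above all basal ones.

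Pol II at the Mgl2 promoter region was low at basal and rose in 4 of the 5 strains by limma. In C57 the 4 basal libraries had 8.11, 3.21, 5.36 and 12.2 tags and the 3 libraries at 24 h had 42.0, 28.7 and 61.6 tags (5.49-fold, log2 2.52 ± 0.47, adjusted p = 0.0385). BALB went from 8.30, 6.52 and 9.85 tags to 66.1 and 91.3 tags (8.64-fold, log2 3.11 ± 0.65, adjusted p = 0.00103). NOD had 12.98 and 13.7 tags at basal and 180 and 96.5 tags at 24 h, the highest level of the 5 strains (9.71-fold, log2 3.21 ± 0.39, adjusted p = 0.110). In no strain did a 24 h library reach down to a basal one, a separation found at 3.3% of C57, 14.5% of BALB, 17.4% of NOD, 8.87% of PWK and 7.05% of SPRET regions. PWK went from 2.12, 2.10 and 9.09 tags to 35.95, 75.4 and 103 tags (13.4-fold, log2 3.85 ± 0.51, adjusted p = 0.00167). SPRET went from 15.48, 10.7 and 19.5 tags to 49.9, 64.3 and 52.6 tags (3.49-fold, log2 1.83 ± 0.29, adjusted p = 0.0151). Leaving out 1 library at a time kept the call in 1 of 7 fits in C57 (that without the first basal library), 4 of 5 in BALB (not without the third basal library), 5 of 6 in PWK (not without the second 24 h library) and 2 of 6 in SPRET (those without the second or the third basal library).

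H3K4me3 at the Mgl2 promoter region also stood higher at 24 h in every library, as at 19.8% of all regions. It went from 6.55 and 9.26 tags to 27.5 and 82.7 tags in C57 (6.30-fold) and from 7.13 and 14.04 tags to 50.9 and 70.5 tags in NOD (5.33-fold). PWK had 8.39 and 1.39 tags at basal and 11.3 and 49.3 tags at 24 h, so that its lowest IL-4 library was close to its highest basal library. The 24 h means were 3.6-fold higher in BALB and 3.25-fold higher in SPRET, and the limma adjusted p lay between 0.0634 in NOD and 0.773 in BALB. Basal H3K4me3 of the Mgl2 promoter region, with means of 4.89 tags in PWK to 10.6 tags in NOD, was under the 20.6 to 67.7 tags of the Clec10a promoter region. H3K4me2 at the Mgl2 promoter region was present at basal, with means before and after IL-4 of 73.8 and 53.9 tags for C57, 59.8 and 58.1 for BALB and 64.5 and 52.7 for SPRET. NOD went from 55.8 to 68.8 tags and PWK from 47.1 to 66.7 tags. No H3K4me2 change there passed limma.

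**Figure D2:**
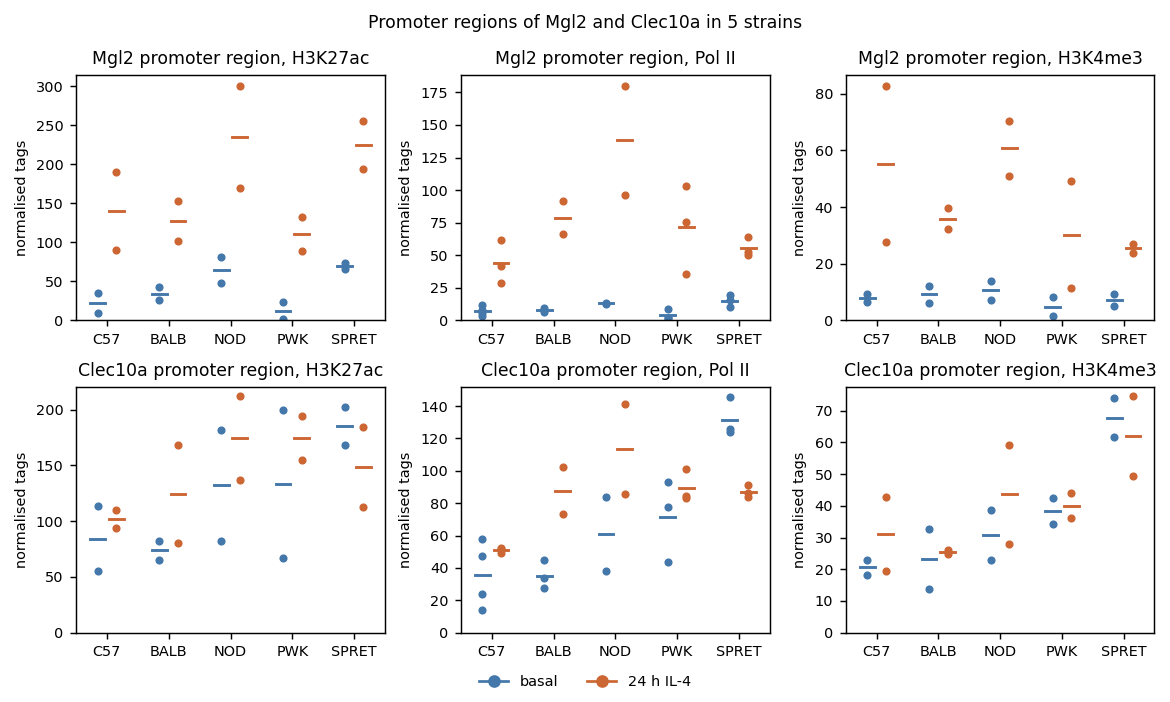
Normalised tags (linear axes from 0) of H3K27ac, Pol II and H3K4me3 at the promoter regions of Mgl2 (top row) and Clec10a (bottom row) in 5 strains, with 1 point per library and a bar at the mean of basal (blue) and 24 h IL-4 (orange). Every 24 h library lies above every basal library at the Mgl2 promoter region, while at the Clec10a promoter region most groups overlap and SPRET Pol II lies lower at 24 h.

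The Clec10a promoter region carried H3K27ac and Pol II before IL-4, and without a replicate block neither was called in any strain. With the block, which the pairing of Pol II numbers in SPRET allows, the fall of Pol II in SPRET was called (limma adjusted p = 0.0308). H3K27ac was 55.0 and 113 tags at basal and 94.2 and 110 tags at 24 h in C57 (1.21-fold, log2 0.36 ± 0.46, limma adjusted p = 0.664). In BALB it was 65.4 and 82.2 tags against 169 and 80.5 tags (1.68-fold, adjusted p = 0.817). NOD had 82.3 and 182 tags against 213 and 137 tags (1.32-fold, adjusted p = 0.731). PWK had 67.0 and 200 tags against 194 and 155 tags (1.31-fold, adjusted p = 0.795). SPRET had 203 and 169 tags against 184 and 113 tags (0.802-fold, adjusted p = 0.776). The groups overlapped in all 5 strains, and the sign in C57, NOD and PWK turned when the first basal library was left out. The H3K4me3 means at this region ran, basal before 24 h, from 20.6 and 31.1 tags for C57 to 67.7 and 62.0 tags for SPRET. Between them lay BALB with 23.2 and 25.4, NOD with 30.7 and 43.6 and PWK with 38.4 and 40.1 tags, and every pair overlapped.

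Pol II at the Clec10a promoter region moved in opposite directions among the strains, without a call at the main setting. BALB had 44.7, 33.8 and 27.4 tags at basal and 102 and 73.0 tags at 24 h (2.44-fold, log2 1.30 ± 0.65, limma adjusted p = 0.646). NOD had 38.3 and 83.5 tags against 141 and 85.7 tags (1.85-fold, log2 0.95 ± 0.44, adjusted p = 0.686). In both strains all 24 h libraries lay above all basal ones, as in 14.5% of all BALB regions and 17.4% of all NOD regions. SPRET had 124, 126 and 145 tags at basal and 91.3, 86.2 and 84.0 tags at 24 h, all lower (0.665-fold, log2 change -0.59 ± 0.20, adjusted p = 0.217), as in 11.5% of all SPRET regions. C57 had 13.7, 24.1, 47.2 and 57.7 tags against 49.4, 51.9 and 52.6 tags. PWK had 43.7, 77.6 and 93.2 tags against 84.1, 83.0 and 101 tags, and both overlapped.

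Within the same libraries, the mean change at the Mgl2 promoter region was higher than that at the Clec10a promoter region. The log2 ratio of tags at the Mgl2 promoter region to tags at the Clec10a promoter region was taken in each library. It does not depend on how a library was scaled, other than through the added 1 tag. The comparison between 24 h and basal was a two-sided exact permutation of libraries within each strain, chosen after the data were seen. The p-values take no account of that choice or of the choice of the Clec10a region, and serve as a description. For H3K27ac the ratio rose by 2.04 on the log2 scale, averaged over strains, from 20 libraries (exact permutation p = 0.000257, the smallest that the 7776 arrangements can give, and 0.000343 after adjustment over 4 targets). The rise was 2.41 in C57, 1.23 in BALB, 1.36 in NOD, 3.17 in PWK and 2.02 in SPRET, and in all 5 strains the 24 h ratios lay above the basal ratios. For Pol II the ratio rose by 2.36 over 28 libraries (exact permutation without regard to replicate numbers, adjusted p = 1.43e-05), and C57 was the strain in which a 24 h ratio overlapped a basal one. For H3K4me3 it rose by 1.98 (exact permutation, adjusted p = 0.000343). For H3K4me2 the change was 0.47 (exact permutation, adjusted p = 0.00669). Without the first basal library of every strain it was 0.25, with an adjusted p of 0.173 by the same exact permutation. At basal the H3K27ac ratio was below 0 in every library, from -4.64 in PWK to -0.76 in NOD, which is to say that Clec10a carried more H3K27ac than Mgl2, and at 24 h it ran from -1.12 in PWK to 1.17 in SPRET.

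Set side by side without a test, since each strain has a table and a genome of its own, basal H3K27ac at the Mgl2 promoter region was highest in SPRET (mean 69.8 tags) and NOD (64.6 tags), then BALB (34.01 tags), C57 (22.2 tags) and PWK (12.6 tags). The libraries of SPRET and NOD overlapped, as did those of BALB and C57 and those of C57 and PWK, and the step between NOD and BALB was the one where neighbours in this order did not. At 24 h the order was NOD (235 tags), SPRET (225 tags), C57 (140 tags), BALB (127 tags) and PWK (111 tags), with each neighbouring pair overlapping except SPRET and C57. Basal Pol II at the Clec10a promoter region was highest in SPRET (mean 132 tags, all 3 libraries above those of every other strain), then PWK (71.5 tags), NOD (60.9 tags), C57 (35.7 tags) and BALB (35.3 tags), the last 4 overlapping from one to the next.

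The distal region at -15.5 kb had little H3K27ac at basal and 52.4 to 160 tags in every library at 24 h. By the fold of means it was highest of the 12 C57 regions in H3K27ac, though by the limma change it came after the Mgl2 promoter region (2.77), with 8.14 and 14.3 tags at basal and 56.0 and 92.5 tags at 24 h (6.17-fold, log2 2.63 ± 0.53, limma adjusted p = 0.114). BALB rose from 10.3 and 9.53 tags to 94.1 and 52.4 tags (6.81-fold, log2 2.71 ± 0.57, adjusted p = 0.000471), and PWK from 5.15 and 13.3 tags to 97.7 and 79.2 tags (8.74-fold, log2 3.25 ± 0.57, adjusted p = 0.0161). NOD had 13.3 and 11.1 tags at basal and 160 and 82.7 tags at 24 h (9.26-fold, log2 3.14 ± 0.56, adjusted p = 0.0898). Each of these 4 strains had all 24 h libraries above all basal ones, and the calls were each kept in 2 of 4 fits that left out 1 library, lost without either basal library in BALB and without either 24 h library in PWK. The SPRET table had no region within 500 bp of this position. Pol II means at the distal region were 2.84 and 23.9 tags for BALB (limma adjusted p = 0.0124) and 2.22 and 23.4 tags for PWK (0.00976). C57 had 1.88 and 9.30 tags (0.184) and NOD 4.33 and 28.5 tags (0.304). H3K4me3 there stayed between 0.725 and 2.90 tags in these means, and H3K4me2 was 24.6 to 32.4 tags at basal and 28.5 to 39.7 tags at 24 h.

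The proximal region at -0.990 kb shared part of its window with the Mgl2 promoter region and gave 5.76-fold more H3K27ac at 24 h in C57 (10.2 and 30.7 tags against 71.3 and 173 tags, limma adjusted p = 0.128). The matching regions rose 6.56-fold in BALB (adjusted p = 0.00196), 7.55-fold in PWK (0.0166) and 3.27-fold in SPRET (0.0180), and stood 6.21-fold higher in NOD (0.118). Its Pol II folds were 8.87 in C57 (adjusted p = 0.0254), 10.6 in BALB (0.000183), 6.02 in NOD (0.199), 12.8 in PWK (0.00262) and 3.03 in SPRET (0.0246). A further region near -8.9 kb was listed in 3 strain tables, with H3K27ac means of 5.55 and 29.8 tags in BALB (adjusted p = 0.00836), 11.035 and 83.9 tags in NOD (0.159) and 8.60 and 41.0 tags in PWK (0.133). The BALB table alone had a region at -17.4 kb, with 8.32 and 30.0 tags (0.0189).

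The other regions with high basal H3K27ac did not rise. In C57 the region at -45.5 kb had 163 and 295 tags at basal and 89.1 and 135 tags at 24 h (log2 change -0.99 ± 0.43, limma adjusted p = 0.237), and the region at 55.0 kb, of whose 75-base stretches 7.12% occur elsewhere in the genome, had 67.2 and 172 tags against 50.9 and 89.3 tags. The largest fall in C57 was at 61.1 kb, from 17.6 and 94.1 tags to 26.3 and 21.7 tags, with overlapping libraries. The Asgr2 promoter region had 72.6 and 116 tags at basal and 51.8 and 53.2 tags at 24 h (log2 change -0.79, adjusted p = 0.306). The median log2 change over all C57 regions was -0.28.

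The time course in C57, which reused the basal and 24 h libraries of the C57 strain table, gave higher H3K27ac at the proximal region from 1 h, with the Mgl2 promoter region called at 24 h and the distal region at no time. The 3 contrasts share the basal libraries. Of 15 regions, limma called 1 higher at 1 h (background 1.37%), 1 at 6 h (2.67%) and 1 at 24 h (1.13%). It called 1 lower at 1 h (8.36%), 2 at 6 h (2.46%) and 0 at 24 h (0.327%). The proximal region had 10.2 and 28.5 tags at basal. It had 98.2 and 86.1 tags at 1 h (log2 2.35 ± 0.63, adjusted p = 0.0307), 167 and 77.3 tags at 6 h (2.66, adjusted p = 0.0216) and 67.1 and 165 tags at 24 h (2.55, adjusted p = 0.0507). The Mgl2 promoter region had 9.50 and 34.2 tags at basal. It had 49.5 and 68.9 tags at 1 h (log2 1.63 ± 0.63, adjusted p = 0.0943), 102 and 68.2 tags at 6 h (2.14, adjusted p = 0.0551) and 90.8 and 188 tags at 24 h (2.77, adjusted p = 0.0329). The proximal call was kept in 3 of 8 leave-one-out fits at 1 h (lost without either basal library, the second of 1 h or either of 6 h) and 5 of 8 at 6 h (lost without the first basal or either 6 h library), and the promoter call at 24 h in 4 of 8 (lost without the first basal, either 6 h or the second 24 h library). At both regions every IL-4 library of each time lay above both basal libraries, as at 14% of all regions at 1 h, 23% at 6 h and 20.3% at 24 h. The distal region had 8.14 and 14.97 tags at basal, 4.64 and 29.3 tags at 1 h, 35.4 and 29.2 tags at 6 h (1.46, adjusted p = 0.246) and 56.9 and 96.5 tags at 24 h (2.64, adjusted p = 0.0637). Its 1 h libraries spanned the basal ones, whereas those of 6 and 24 h stood above. Whether the 3 time profiles differ from each other was not tested.

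The region downstream of Clec10a fell at 1 and 6 h, and the Clec10a promoter region was not called at any time. The Clec10a promoter region had 55.0 and 113 tags at basal, 46.4 and 46.8 tags at 1 h (log2 change -0.75, limma adjusted p = 0.352), 63.2 and 63.9 tags at 6 h, inside the basal range, and 93.4 and 108 tags at 24 h. Its direction was not stable, since the change at 1 h was 0.0506 with median-ratio scaling and that at 6 h was 0.206 without the second basal library. The region at 55.1 kb fell from 67.8 and 165 tags to 6.18 and 26.5 tags at 1 h (log2 change -2.93 ± 0.68, adjusted p = 0.0194) and 10.8 and 21.3 tags at 6 h (-2.72, adjusted p = 0.0272), with 50.1 and 89.3 tags at 24 h. The Asgr2 promoter region had 74.6 and 116 tags at basal, 24.7 and 56.8 tags at 1 h, 19.3 and 23.1 tags at 6 h (log2 change -2.09 ± 0.57, adjusted p = 0.0395) and 54.3 and 59.1 tags at 24 h. The share of tags in the regions of this table was 63.8 to 69.7% at basal, 20.5 to 44.0% at 1 h and 50.3 to 51.0% at 6 h, and the median log2 change over all regions was -0.63, -0.14 and -0.22 at 1, 6 and 24 h. Without the second basal library the falls at 55.1 kb were not called, nor without either 6 h library at 6 h, and the Asgr2 fall was lost without either basal or either 6 h library. With each library rescaled by its median ratio, or with edgeR, the falls at 55.1 kb and Asgr2 were not called, while the rises of the proximal region were called at all 3 times.

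**Figure D3:**
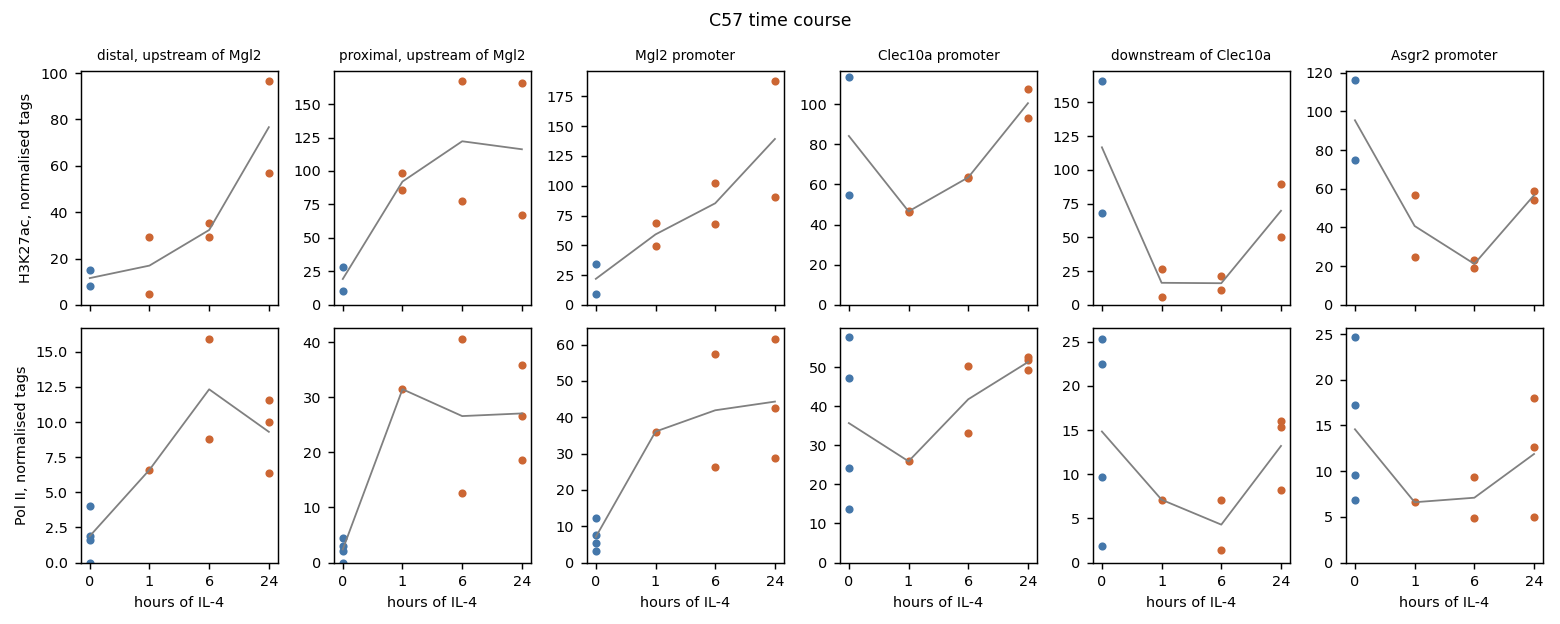
H3K27ac (top row) and Pol II (bottom row) as normalised tags at 6 regions of the C57 locus against hours of IL-4 (0 is basal; hours are evenly spaced, not to scale), with 1 point per library and a line through the means. The proximal region reaches 86.1 to 98.2 H3K27ac tags at 1 h, the distal region is highest at 24 h, and the region at 55.1 kb is lowest at 1 and 6 h.

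Pol II over time, with 4 basal libraries, 1 at 1 h, 2 at 6 h and 3 at 24 h, was called higher at 0, 2 and 2 of the 15 regions (background 0.0462%, 0.428% and 0.503%). At the Mgl2 promoter region it was 7.49, 3.21, 5.36 and 12.2 tags at basal. It was 36.1 tags in the library of 1 h (limma adjusted p = 0.191), 57.5 and 26.3 tags at 6 h (0.0408) and 42.7, 28.7 and 61.6 tags at 24 h (0.0149). The proximal region had 4.37, 0, 2.14 and 3.04 tags at basal. It had 31.5 tags at 1 h (0.115), 40.5 and 12.7 tags at 6 h (0.0393) and 26.7, 18.7 and 35.9 tags at 24 h (0.0125). The 1 h values are those of a single library, whose spread is borrowed from the other times, and neither region was called at 1 h. At the Clec10a promoter region the 1 h library had 25.9 tags and the 6 h libraries 50.4 and 33.2 tags, inside the basal range of 13.7 to 57.7 tags. The 2 regions kept their 24 h calls in 8 of 9 leave-one-out fits each. The 4 Pol II calls became 0 without the first library of 24 h and 2 without either library of 6 h or without the second, the third or the fourth basal library.

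Factor peaks in the locus fell on 40 sites. A peak of a 24 h list was counted as gained where it touched no basal peak of the same factor and strain, and each list stands for its group, so replicates cannot be compared. Of the 24 h peaks in the locus over 5 strains, 16 of 51 for STAT6 were gained, or 31.4%, against 49.5% of the whole lists. For EGR2 it was 21 of 29, or 72.4%, against 54.8%, and for PPARg 31 of 56, or 55.4%, against 72.1%. PU1 gained 19 of 102 peaks, or 18.6%, against 15.7%, and CEBPb gained 17 of 47, or 36.2%, against 45.7%. The share of gained peaks in the locus was above that of the lists for EGR2, near it for PU1 and below it for the other factors, without a test. By strain, the EGR2 peaks gained ran from 0 of 2 in NOD (11.1% of its list) to 7 of 7 in C57 (72.5%). With basal and 24 h lists shortened to the same length, 6 of 12 EGR2 peaks were gained against 26.1% of the lists, 9 of 33 PPARg peaks against 44.8%, 6 of 32 CEBPb peaks against 19.6%, 15 of 48 STAT6 peaks against 37.4% and 20 of 97 PU1 peaks against 15.9%. The CEBPb share was then close to that of its lists.

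STAT6 peaks lay on the upstream flank of Mgl2 and elsewhere in the locus. The sites at -45.6, -38.1 and 68.2 kb also had a STAT6 peak in all 5 strains at 24 h, and in 5, 5 and 4 strains at basal. At the distal site, printed first above, no strain had a STAT6 peak at basal and BALB, C57, NOD and PWK had one at 24 h. The C57 peak was already listed at 1 h with 285 tags (percentile 92.9 of its list by tag count) and at 6 h with 185 tags (91.0), and it held 195 tags at 24 h (99.1). EGR2 was listed there in BALB and C57 at 24 h and in no strain at basal, PPARg in 4 strains at 24 h against PWK alone at basal, CEBPb in 3 against 0, and PU1 in 2 at either time. SPRET, which had no region there, had no peak of any of the 5 factors at the site. At the proximal site STAT6 was listed in 3 strains at basal and 5 at 24 h, and the C57 peak held 27 tags at basal (percentile 40.6), 350 at 1 h (96.7), 251 at 6 h (97) and 150 at 24 h (98.1). PU1 was there in all 5 strains at either time, CEBPb in 2 and then 5, PPARg in 0 and then 4, and EGR2 in 0 and then 1. The tag counts are the authors' and their scaling is not given, so they are read within a list only.

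At the Mgl2 start the factors were mostly in place before IL-4. STAT6 and PU1 were listed in all 5 strains at basal and at 24 h, CEBPb in 4 and 5, EGR2 in 3 and 4 and PPARg in 0 and 2. The C57 STAT6 peak there held 50 tags at basal (percentile 81.9) and 71 at 24 h (85.1), and the PU1 peak 348 (95.7) and 398 tags (97.3). At the Clec10a RefSeq start PU1 and PPARg were listed in all 5 strains at both times, STAT6 in 3 and 5, EGR2 in 1 and 2 and CEBPb in none. The C57 PU1 peak at Clec10a was as high as that at Mgl2, with 371 tags at basal (96.6) and 409 at 24 h (97.6). At the site 18.7 kb past Clec10a PPARg was listed in all 5 strains at both times and its C57 peak stood at percentile 99.1 of the basal list and 99.7 of the 24 h list. STAT6 was listed there in 4 strains at either time. In C57 it was not listed at 1 or 6 h, in lists of 24376 and 23884 peaks against 30589 at basal.

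The site 22.8 kb past Clec10a was, like the distal site, free of STAT6 peaks at basal in all strains, and C57, NOD and PWK had one at 24 h. Its C57 peak held 278 tags at 1 h (percentile 92.2), 157 at 6 h (85.5) and 47 at 24 h (68.0). EGR2 was listed there in C57 alone, PPARg in PWK alone, CEBPb in NOD and PWK and PU1 in 4 strains at 24 h against SPRET at basal. C57 had 0 EGR2 peaks in the locus at basal, 1 at 1 h, 3 at 6 h and 7 at 24 h, in lists of 8437, 13562, 13072 and 29407 peaks. With every list shortened to the length of the basal one there were 0 at each time.

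The EGR2 tags behind these peaks were widely spread between replicates. At the distal site they were 9.37 and 5.37 tags at basal, 6.32 and 18.3 tags at 1 h, 10.5 and 30.1 tags at 6 h and 36.4 and 22.1 tags at 24 h (log2 1.85 ± 0.89, limma adjusted p = 0.838). At the Mgl2 start they were 18.7 and 17.5 tags at basal and 34.1 and 13.4 tags at 24 h, and at the site 22.8 kb past Clec10a 11.2 and 10.7 tags at basal, 6.32 and 35.7 tags at 1 h, 15.7 and 52.0 tags at 6 h and 19.8 and 35.5 tags at 24 h. The distal site and the site past Clec10a had both 24 h libraries above both basal ones, and the Mgl2 start did not. None of the 8 sites was called at any time (0.0% of the whole list in either direction), while 2 had an unadjusted p under 0.05 in 1 contrast each, and 54.6% of all EGR2 sites had both 24 h libraries above both basal ones.

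At the distal site of Mgl2, H3K27ac rose with IL-4 in Egr2flfl and in LyzMCreEgr2flfl cells. The tables of genotypes hold 4677 EGR2 sites that appear with 24 h of IL-4, of which the distal site (H3K27ac window 70114225 to 70115225) and the site 22.8 kb past Clec10a (70188903 to 70189903) lie in the locus. At the distal site H3K27ac was 5.96 and 8.82 tags at basal and 87.4 and 110 tags at 24 h in Egr2flfl (log2 3.58 ± 0.35, limma adjusted p = 3.80e-06, background 25.6% higher). In LyzMCreEgr2flfl it was 9.03 and 6.73 tags at basal and 84.2 and 156 tags at 24 h (log2 3.72 ± 0.35, adjusted p = 1.49e-06, background 14.4%). The genotypes overlapped at 24 h and differed by 0.22 ± 0.35 on the log2 scale (adjusted p = 0.691), and the sign turned when the second LyzMCreEgr2flfl library of 24 h was left out. With edgeR on recovered reads the difference was 0.80, higher in LyzMCreEgr2flfl (adjusted p = 0.0449). Over all 4677 sites, limma called 23.2% lower and 1.41% higher in LyzMCreEgr2flfl at 24 h, with a median log2 difference of -0.50.

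STAT6 and PU1 at the distal site also rose in both genotypes. STAT6 went from 3.09 and 3.59 tags to 51.0 and 30.1 tags in Egr2flfl (log2 3.21 ± 0.58, limma adjusted p = 0.000695, background 11.8% higher) and from 6.69 and 4.59 tags to 43.3 and 25.9 tags in LyzMCreEgr2flfl (log2 2.40 ± 0.58, adjusted p = 0.0297, background 1.2%). PU1 went from 17.9 and 27.6 tags to 68.5 and 63.7 tags in Egr2flfl (1.53 ± 0.26, adjusted p = 0.00247, background 8.19%) and from 18.3 and 22.8 tags to 62.4 and 87.4 tags in LyzMCreEgr2flfl (1.80 ± 0.26, adjusted p = 0.000682, background 2.8%). Leaving out 1 library kept the STAT6 call in 7 of 8 fits in Egr2flfl (not without its first 24 h library) and 2 of 8 in LyzMCreEgr2flfl (lost without any of its 4 libraries or either Egr2flfl library of 24 h), and the PU1 call in 5 of 8 in Egr2flfl (lost without either 24 h or the first basal library) and 8 of 8 in LyzMCreEgr2flfl. Neither factor was called different between genotypes at 24 h, with differences of -0.22 ± 0.58 for STAT6 and 0.16 ± 0.26 for PU1. PPARg went from 0 and 11.1 tags to 25.6 and 31.5 tags in Egr2flfl and from 4.26 and 0 tags to 22.2 and 34.9 tags in LyzMCreEgr2flfl, and CEBPb from 1.30 and 14.7 tags to 47.2 and 19.5 tags and from 4.36 and 1.03 tags to 16.96 and 27.9 tags. All 24 h libraries of these 2 factors stood above the basal ones of their genotype, without a limma call. For PPARg that held at 48.8% of the sites in Egr2flfl and 10.1% in LyzMCreEgr2flfl, and for CEBPb at 40.2% and 17.2%. H3K4me2 at the distal site was 40.6 and 35.2 tags at basal and 31.2 and 47.9 tags at 24 h in Egr2flfl, and 28.9 and 28.5 tags and 23.8 and 37.7 tags in LyzMCreEgr2flfl. Pol II, with 1 labelled library per group and so no replicate check, was 2.5 and 13.6 tags in Egr2flfl and 1.30 and 18.6 tags in LyzMCreEgr2flfl.

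**Figure D4:**
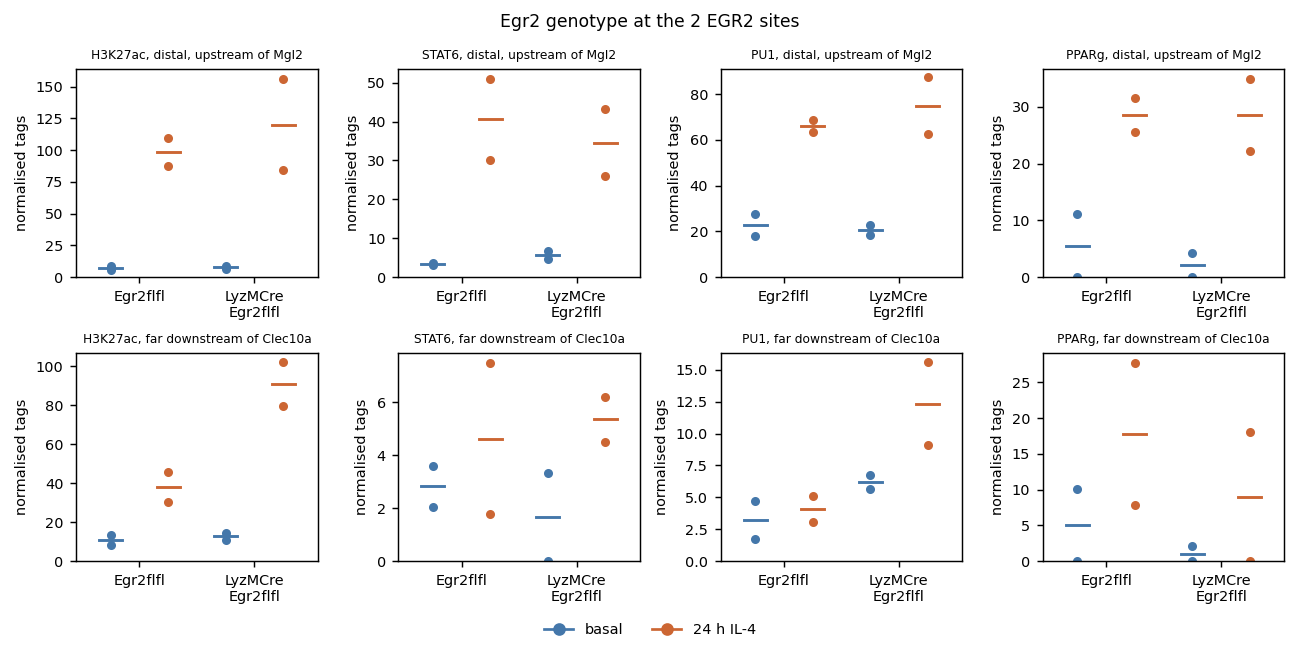
Normalised tags (linear axes from 0) of H3K27ac, STAT6, PU1 and PPARg at the distal site upstream of Mgl2 (top row) and the site 22.8 kb past Clec10a (bottom row) in Egr2flfl and LyzMCreEgr2flfl macrophages, with 1 point per library and a bar at the mean of basal (blue) and 24 h IL-4 (orange). At the distal site both genotypes reach 84.2 to 156 H3K27ac tags, and at the site past Clec10a the LyzMCreEgr2flfl libraries of 24 h (79.5 and 102 tags) lie above those of Egr2flfl (30.2 and 45.6 tags).

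At the site 22.8 kb past Clec10a the LyzMCreEgr2flfl cells had more H3K27ac after IL-4. It was 8.52 and 13.6 tags at basal and 30.2 and 45.6 tags at 24 h in Egr2flfl (log2 1.69 ± 0.35, limma adjusted p = 0.00179), and 11.03 and 14.6 tags and 102 and 79.5 tags in LyzMCreEgr2flfl (log2 2.73 ± 0.35, adjusted p = 2.94e-05). At 24 h the genotypes did not overlap, as at 9.6% of the sites in this direction, and differed by 1.26 ± 0.35 on the log2 scale (adjusted p = 0.0158), a direction called at 1.41% of the sites. Without the first Egr2flfl library of 24 h the difference was 0.97 (adjusted p = 0.165), and without the first LyzMCreEgr2flfl library of 24 h 1.08 (adjusted p = 0.124). The interaction of genotype and IL-4 was 1.04 ± 0.49 (limma adjusted p = 0.381), so that a larger response in LyzMCreEgr2flfl was not established. PU1 at 24 h was 5.14 and 3.09 tags in Egr2flfl and 15.6 and 9.09 tags in LyzMCreEgr2flfl (1.37 ± 0.55, adjusted p = 0.126), also without overlap, as at 10.5% of the sites. STAT6 stayed at 1.77 to 7.47 tags and CEBPb at 3.02 to 10.6 tags in the 24 h libraries of both genotypes.

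Other genes known for the IL-4 response, and genes listed as C-type lectin receptors, were read at their promoter regions. Both lists leave out the 2 lectins of the locus. Of 30 genes of alternative activation, 18 or 19 had a promoter region in a strain table. H3K27ac was higher by the fold rule at 7 of them in C57, 7 in BALB, 6 in NOD, 6 in PWK and 8 in SPRET, and lower at 0, where 3.46%, 2.84%, 3.24%, 3.1% and 2.64% of all regions were higher. Limma called 0 of them higher in C57 (0.0% of all regions), 5 in BALB (1.6%), 0 in NOD (0.0566%), 3 in PWK (0.487%) and 6 in SPRET (0.994%), and 0 lower. Slc7a2, which imports arginine, had means of 7.96 and 272 tags in C57, and Tmem26, a membrane protein induced by IL-4, 4.82 and 209 tags. Arg1 had 63.6 and 195 tags in C57, the only strain in which it passed the fold rule for H3K27ac, and Mrc1 passed it in no strain. Cish, a STAT-induced inhibitor of cytokine signalling, had 9.30 and 60.8 tags, and Egr2 itself 6.58 and 35.7 tags. The median log2 change of the list in C57 was 0.92, beside -0.28 for all regions. The list holds promoter regions only, whereas this median and the shares of all regions given for both gene lists include distal regions. The Mgl2 promoter region, at 2.77, had a smaller change than Slc7a2 (4.79), Tmem26 (5.01) and Flt1 (3.48), the receptor of vascular growth factors.

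Of 41 other genes listed as C-type lectin receptors, 14 to 17 had a promoter region, and for H3K27ac 0 were higher in any strain by the fold rule. Lower by that rule were 6 in C57 (7.55% of all regions), 2 in BALB (5.13%), 2 in NOD (5.14%), 0 in PWK (3.01%) and 0 in SPRET (0.939%). Limma called 0 in either direction. The 6 in C57 were Clec4a4, Clec4d, Clec4e, Clec4n, Cd302 and Cd93. Clec4e (Mincle), a receptor for mycobacterial glycolipid, had means of 247 and 80.9 tags, and Clec4d, its partner, 721 and 209 tags. For Pol II, limma called Clec4d lower in C57 (384 and 90.9 tags, adjusted p = 0.0392), Mrc1, the mannose receptor, higher in PWK (33.7 and 145 tags, adjusted p = 0.00174) and Clec2i higher in SPRET (104 and 242 tags, adjusted p = 0.0407). By the fold rule alone Pol II was higher at Mrc1 in C57 (131 and 342 tags), BALB (126 and 390) and NOD (152 and 450), and at Clec16a in BALB. It was lower by that rule at Clec4d and Clec4n in C57, Clec4e, Clec4n and Clec12b in NOD, and Clec4a4 and Clec4n in SPRET. The median H3K27ac change of the lectin list in C57 was -0.86, under the -0.53 of all promoter regions.

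Promoter regions whose H3K27ac ran most like that of each lectin over the 8 libraries of the C57 time course were sought among 9440 promoters by the Pearson correlation of log2 tags, given as a description without a test because the libraries share their depth and their groups. Nearest to Mgl2 were Batf3 (r = 0.950), Klhl33 (0.895), Irf4 (0.886), Sult6b2 (0.870) and Foxj3 (0.869). Batf3 and Irf4 encode transcription factors of dendritic cells and activated macrophages, and the group means of Batf3 were 6.32 tags at basal, 17.1 at 1 h, 23.7 at 6 h and 57.3 at 24 h. Nearest to Clec10a were Faap100 (0.926), Zfp707 (0.925), Ap1s3 (0.924), Dhrs9 (0.900) and Tmem159 (0.898). Dhrs9, a retinol dehydrogenase of macrophages, had means of 209, 80.9, 123 and 211 tags at basal, 1, 6 and 24 h, when the share of tags in regions was lowest at 1 h.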

How the data were processed

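ChIP-seq reads of 75 bp were aligned by the authors with Bowtie2 to strain genomes, shifted to mm10 and counted with HOMER. The deposited signal values are tag counts scaled to 10000000 tags per library in 1000-bp (histone marks, Pol II) or 300-bp (factors) windows. The deposited peak lists hold 200-bp peaks kept by reproducibility between replicates, 1 list per group, with a score and a tag count whose scaling is not given. Of the per-sample columns, 4 Pol II columns that matched no sample label were not used.

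Each whole table was fitted with limma 3.58.1 (R 4.3.3) on log2(normalised tags + 1) without a filter, with a mean-dependent spread and Benjamini-Hochberg adjustment over the table at 0.05. Log2 changes are on that scale, which understates changes of low regions. A fold rule (2.5-fold of means plus 1, with 16 tags, or 8 for Pol II, in either group) stood beside it. Whole reads were recovered within 0.1 for 100% of values, and edgeR 4.0.16 and DESeq2 1.42.0 were run on those reads as alternatives, as were a pseudocount of 5, a filter on low regions, median-ratio scaling, a 2-fold threshold, a replicate block and leaving out each library. The genotype fits took both genotypes and conditions together. Pol II of the genotypes, with 1 labelled library per group, was not tested. The lone Pol II library of 1 h was assumed to vary like the other times. The labels do not say whether replicates are separate animals, so p-values measure the spread between these libraries. The limma, edgeR and DESeq2 code was tested on simulated counts for basal against 24 h H3K27ac in C57. The time course, genotype and block fits and the permutation were not tested on simulated data.

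Peaks matched when they shared 1 bp. Gene models were GENCODE vM21, and gene starts were also read from RefSeq. The named regions were the promoter regions, the 3 C57 regions highest in the mean of basal and 24 h H3K27ac, those with the largest rise and fall in C57 (24 h, time course, genotype) and their matches within 500 bp in other strains. Genes named from the lists were chosen among those past a threshold after their values were seen. Members, lists and rules were chosen with earlier results of these data known.

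Pol II replicates of the same number deviated together in every pair of the C57 (r = 0.118 to 0.240), PWK (0.201 to 0.469) and SPRET (0.224 to 0.310) strain tables, so there the numbers were taken to pair the samples. With 2 pairs each, same-numbered H3K27ac libraries also deviated together in C57 (r = 0.470), BALB (0.435), NOD (0.492) and PWK (0.441). So did those of Pol II in BALB (0.250 and 0.300) and NOD (0.368). The main limma fits and the permutations of the ratio took no account of replicate numbers. Intervals of counting error are not given, and the depth of 4691644 to 29050468 tags limits regions of a few tags.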

Additional observations from a re-analysis of the deposited data

Results flagged for a closer look

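Pol II at the Clec10a promoter region was singled out because all libraries moved one way in some strains and the other way in another. The log2 change at 24 h was 1.30 in BALB and 0.947 in NOD, with all IL-4 libraries above all basal ones, and -0.586 in SPRET, with all below. The difference between strains was not tested, since each strain has a table and a genome of its own, and none of the 3 changes was called by limma in the fit without a block. The only group large enough to look for a library that stood apart, the 4 basal Pol II libraries of C57, held none by Dixon's criterion at 27 regions of the strain and time course tables.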

How the results depend on the processing

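With 2 to 4 libraries per group the limma counts moved with the fit, and the fold-rule count of regions higher in H3K27ac was the steadier. For 46 named values, 462 alternative values kept direction and side of the threshold, 33 gained a call, 55 lost one and 10 changed sign. For 25 further values marked as headline results, 163 alternative values stayed the same and 57 moved. In counts over 5 strains, a library left out means the same-numbered library of every strain that has it, all removed together. Regions called for H3K27ac in 5 strains, 9 by limma, were 16 with DESeq2, 24 with the replicate block and 2 to 8 without a library. For H3K4me2, 0 became 2 with the block and 0 to 12 without a library. For H3K4me3, 0 became 1 with a pseudocount of 5, the filter or median-ratio scaling, 3 with edgeR, 2 with DESeq2 and 6 with the block, and 0 to 1 without a library. Pol II calls, 10, were 2 to 8 without a library. Regions higher by the fold rule were 17 to 22 for H3K27ac and 15 to 16 for Pol II without a library, and those lower, 1 for H3K27ac, were 0 with a pseudocount of 5 or median-ratio scaling, 3 at 2-fold and 0 to 5 without a library, and for Pol II 0 to 1. 

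In the time course the H3K27ac regions called, 6, were 12 with DESeq2, 13 with the block and 1 to 11 without a library, those higher by the fold rule, 9, were 6 to 11, and those lower, 10, were 5 with median-ratio scaling and 4 to 15 without a library. Pol II calls, 4, were 7 with DESeq2 and 0 to 6 without a library, regions higher, 8, were 8 to 9, and lower, 1, were 0 with a pseudocount of 5, 2 at 2-fold and 0 to 3. EGR2 calls, 0, were 0 to 1. Genotype differences called, 1, were 3 with edgeR and 0 to 1 without a library, which here was dropped from all targets together. The 8 calls of 24 h against basal were then 5 to 8 and the interaction stayed at 0. With lists of equal length, gained peaks were 6 of 32 for CEBPb, 6 of 12 for EGR2 and 9 of 33 for PPARg, or 18.75%, 50% and 27.3% against 19.6%, 26.1% and 44.8% of the lists.

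The log2 change at the Clec10a promoter region changed sign for H3K27ac without the first basal library, to -0.157 (0.875 without the second) for C57, -0.0884 (1.045) for NOD, -0.204 (1.358) for PWK and -0.176 (0.856) at 24 h of the time course. At 6 h it went from -0.826 to 0.206 without the first and the second basal library, and it became 0.0506 at 1 h with median-ratio scaling. For Pol II at 1 h it became 0.0242 with that scaling, 0.315 with the block and -0.622 to 0.0434 without a library. The genotype difference of H3K27ac at the distal site was -0.217 to 0.666 without a library. The ratio of Mgl2 to Clec10a tags was chosen after the data were seen. Over its alternatives its change ranged from 1.72 to 2.35 for H3K27ac, 1.93 to 2.54 for Pol II and 1.29 to 2.67 for H3K4me3. For H3K4me2 it ranged from 0.254 to 0.688. The H3K4me2 change missed the threshold at 0.254 (adjusted exact permutation p = 0.173) without the first basal library of every strain. It also did so at 0.348 (0.0535) without the second 24 h library of every strain. With the RefSeq start of Clec10a in the rule, also chosen after the data were seen, 95 regions in place of 89 were counted. The cause of these changes was not tested.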
